A study of Drosophila melanogaster with 6 samples.

Results

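The Niemann-Pick genes of Drosophila melanogaster are 10 genes of sterol transport, Npc1a and Npc1b of the Npc1 type and Npc2a to Npc2h of the Npc2 type. They were taken by name from the table of 14862 genes that the authors deposited, and all 10 were found, each in 1 row. Npc1a and Npc2a were set apart as the broadly expressed members. The other 8 were treated as tissue-restricted members, of which Npc1b and several Npc2 genes are known from the gut; this assignment is background and was not measured here. The study compared 3 samples labelled InR-DN with 3 labelled GFP control. InR-DN is a dominant-negative insulin receptor, which blocks signalling by the normal receptor, and GFP is green fluorescent protein. Each transgene was expressed in the mother's oocytes, and each sample is RNA of 200 of the resulting embryos, labelled as 16 to 20 h old, from flies kept on yeast-supplemented standard food. The question was which genes differ in embryos whose mothers had lowered insulin signalling in the germ line. The sources used here do not name the promoter that drove the transgenes, nor say whether samples with the same label were raised from different crosses, so the p-values may measure technical spread only.

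Niemann-Pick proteins move sterols out of the late endosome and lysosome. An Npc2 protein is a small soluble protein that binds a sterol in the lumen and hands it to Npc1, a large protein with many membrane spans. Insects cannot make the sterol ring and live on dietary sterol, from which they also build the moulting hormone ecdysone. In the fly, Npc1a serves this traffic in most cells, whereas Npc1b serves sterol uptake from food in the midgut.

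The table holds 1 log2 fold change, 1 average log2 CPM (counts scaled to 1000000 reads) and 1 edgeR test per gene, and no value per sample, so no standard deviation or value per replicate can be given. It does not state which group is the numerator. A gene is therefore described by the sign of its deposited fold change, as lying on the positive or on the negative side, and whether a side stands for InR-DN or for GFP control embryos remains unknown. Errors after ± are implied standard errors, the size of the log2 fold change divided by the root of the test statistic. The averages cover 12 libraries, of which 3 set the positive side (25.7 to 40.5 M reads, with M for 1000000 reads), 3 set the negative side (23.4 to 31.1 M reads) and 6 were not compared. The authors' deposited table gave InR itself a log2 fold change of 0.25 ± 0.26 with an edgeR adjusted p of 1, so InR does not tell the groups apart. Markers of the late embryo go against the labelled age: by the authors' deposited table, 14 of 15 genes of the cuticle-forming epidermis averaged under 1 CPM, and 7 had no read in the compared libraries. The 21 markers of the ovary and early egg had a median of 865 CPM by the authors' deposited table, with 0 of them past the threshold. These averages include the 6 libraries that were not compared, whereas the lack of reads for 7 cuticle genes holds within the compared libraries. The stage of the compared libraries could not be settled, so every value below is of samples labelled as late embryos. Fewer cells of a type and less RNA per cell cannot be told apart in RNA of whole animals.

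Some sterol transport genes of restricted expression differed between the groups, and the broadly expressed members did not pass the test. The authors' deposited table puts Npc1b, Npc2c and Npc2e past an edgeR adjusted p of 0.05, all on the negative side. That is 3 of 10 members, against 4.49% of all genes on either side together. The share of all genes that passed was 2.30% on the positive side, where the members had 0 of 10, and 2.19% on the negative side. At an unadjusted edgeR p under 0.05 the authors' deposited table holds 7 members. On the positive side these were 2 (5.66% of all genes there), and on the negative side 5 (4.35%). All 7 were among the 8 tissue-restricted members, Npc2g being the exception. From the authors' deposited table, the median log2 fold change was -0.93 over the tissue-restricted and 0.23 over the broadly expressed members, against 0 over all genes. The difference between the medians of these members was not tested.

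**Figure D1:**
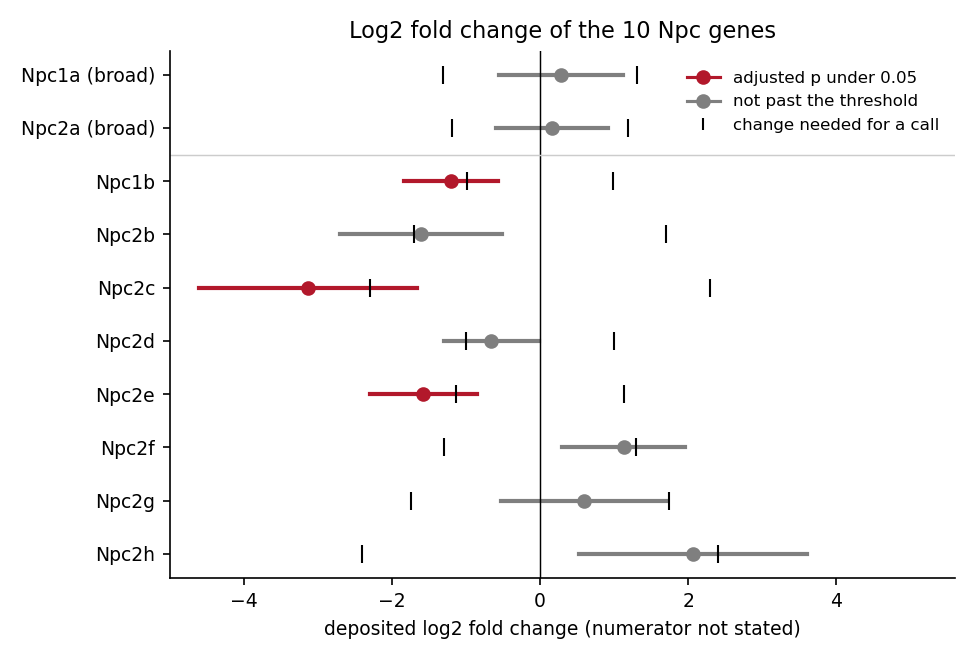
Deposited log2 fold change of the 10 Npc genes (points) with 95% intervals from the implied standard error (lines). Black ticks mark the change each gene would have needed to pass at its own standard error. Npc1b, Npc2c and Npc2e lie beyond the tick on the negative side, and both broadly expressed genes lie within 0.29 of 0.

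Npc1a (FBgn0024320, chromosome arm 2L), which carries sterol out of the lysosome in most cells, was abundant, with an average of 78.6 CPM by the authors' deposited table. In the authors' deposited table the log2 fold change of Npc1a was 0.29 ± 0.43, with a 95% interval of -0.55 to 1.13 and an edgeR adjusted p of 1. Npc2a (FBgn0031381, chromosome arm 2L), its broadly expressed soluble partner, averaged 58.4 CPM by the authors' deposited table. The authors' deposited table gave Npc2a 0.16 ± 0.39 (interval -0.60 to 0.92) with an edgeR adjusted p of 1. Both errors were above 0.23, the median implied SE that the authors' deposited table gives over the 6398 genes averaging at least 16 CPM. At these errors Npc1a would have needed a log2 change of 1.31 and Npc2a one of 1.19 to pass. Smaller differences would not have passed.

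Npc1b (FBgn0261675, chromosome X) takes up dietary sterol in the midgut. By the authors' deposited table it averaged 0.742 CPM, and its log2 fold change was -1.20 ± 0.32 (interval -1.84 to -0.57; edgeR adjusted p = 0.00667). This is a 2.30-fold lower level on the positive side than on the negative side. Over its 3 libraries the positive side held 28.1 to 82.2 reads of the gene, against 52.9 to 154 reads on the negative side. The lowest numbers are those at which Poisson noise alone gives the deposited statistic, and the highest give the compared libraries every read of the fit. They correspond to 0.271 to 0.795 CPM on the positive side, against 0.629 to 1.83 CPM on the negative side. Under the Benjamini-Yekutieli adjustment of the same edgeR p-values, the call on Npc1b was lost (adjusted p = 0.0679).

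**Figure D2:**
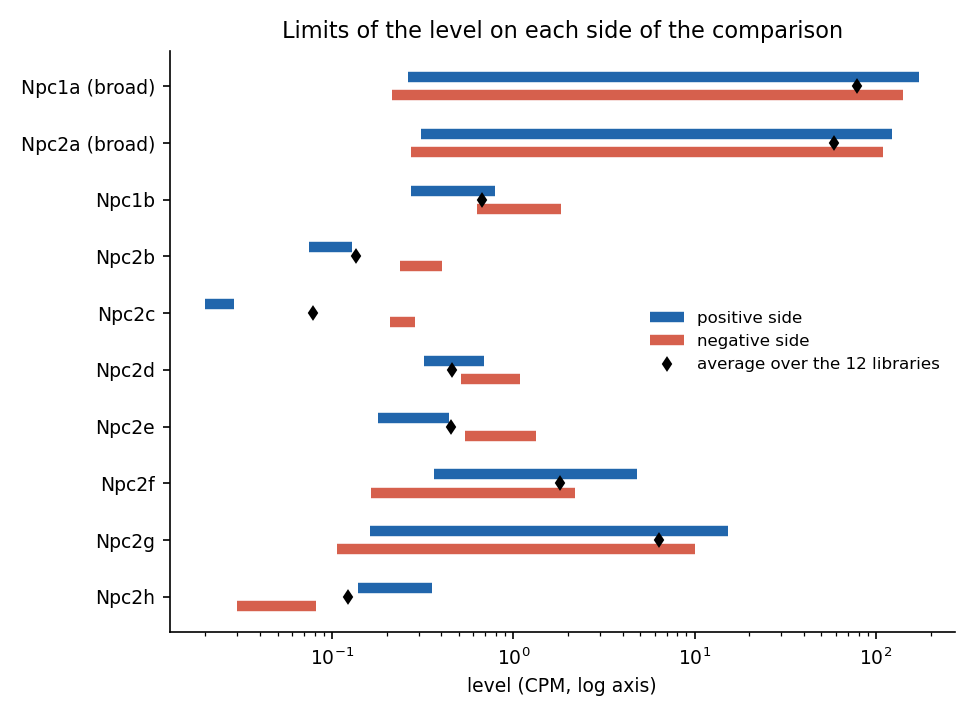
Lowest and highest possible level (CPM, log axis) of each Npc gene in the 3 positive-side and the 3 negative-side libraries; diamonds are the average over the 12 libraries of the fit without its prior count. The bars of the 2 sides share no value for Npc2b, Npc2c, Npc2e and Npc2h. Both bars of a gene follow from its deposited fold over a range of read totals, so their separation is not a test of a difference. Npc2b and Npc2h did not pass, and Npc1b passed with bars that overlap. The share of all genes with separate bars is not given here. The positive-side bar of Npc1a runs over 0.264 to 173 CPM, since a small statistic sets almost no lower limit.

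Npc2e, Npc2d and Npc2c stand next to each other on chromosome arm 3R, with 0 protein-coding genes between them in the Release 6 order, and all 3 lay on the negative side. Npc2e (FBgn0051410) is one of the Npc2 proteins reported to bind bacterial cell wall components. For this gene the authors' deposited table has an average of 0.521 CPM and a log2 fold change of -1.57 ± 0.37 (interval -2.30 to -0.85; edgeR adjusted p = 8.81e-04). Its reads numbered 18.5 to 45.8 on the positive side, against 45.6 to 112 on the negative side. Npc2e was thus 2.98-fold lower on the positive side by the deposited fold.

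Npc2c (FBgn0037783) was the scarcest member and had the largest fold size of the 10. It averaged 0.147 CPM by the authors' deposited table, with a log2 fold change of -3.13 ± 0.75 and an edgeR adjusted p of 0.00124. The positive side held 2.07 to 2.98 reads over its 3 libraries, and the negative side held 17.5 to 24.0 reads. With so few reads the deposited fold depends on the prior count of the fit. Rounded at the highest limits to 3 positive-side and 24 negative-side reads, the level was 9.84-fold higher on the negative side, with an exact 95% counting interval of 2.99 to 51.0. At the lowest limits, 2 and 18 reads, the ratio was 11.1 with an interval of 2.65 to 98.4. These intervals cover counting error only. Their reads were derived from the deposited fold, average and statistic, so that neither interval is separate evidence of a difference.

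Npc2d (FBgn0037782), the gene between Npc2e and Npc2c, was as abundant as Npc2e, with an average of 0.527 CPM by the authors' deposited table. Its log2 fold change in the authors' deposited table was -0.66 ± 0.33 (interval -1.30 to -0.02; edgeR adjusted p = 0.456), and a call would have needed a change of 1.00. Its reads numbered 33.3 to 70.9 on the positive side, against 43.0 to 91.3 on the negative side. Whether Npc2d differs from Npc2e and Npc2c in its change was not tested. In the Release 6 annotation, 611 of the 661 exon bases of Npc2e and 414 of the 708 of Npc2c are covered by an antisense RNA gene. The sources used here do not say whether strand was used in counting, so reads of the antisense genes may be included. CR44192, the antisense gene at Npc2e, had a log2 fold change of -1.34 at 0.265 CPM by the authors' deposited table (edgeR adjusted p = 0.581). The antisense gene at Npc2c, CR45205, has no value in the authors' deposited table.

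Npc2b (FBgn0038198, chromosome arm 3R), which shares the task of Npc2a in sterol balance and ecdysone supply, lay on the same side without passing. The authors' deposited table gave it an average of 0.205 CPM and a log2 fold change of -1.60 ± 0.56 (interval -2.70 to -0.51; edgeR adjusted p = 0.0796). Its change was about as large as that of Npc2e but with a larger error, and 1.70 would have been needed for a call. The positive side held 7.72 to 13.4 reads and the negative side 19.8 to 33.8 reads. At least 53.8% of all its reads in the fit were in the compared libraries, whose effective sizes make up 54.0% of the total. Its neighbour on 1 side is foxo, the transcription factor that insulin signalling restrains, with a log2 fold change of -0.04 by the authors' deposited table (edgeR adjusted p = 1).

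Npc2f, Npc2g and Npc2h lay on the positive side, and none of the 3 passed. Npc2f (FBgn0039154, chromosome arm 3R) averaged 1.88 CPM, and the authors' deposited table gave it 1.13 ± 0.42 on the log2 fold scale (interval 0.30 to 1.96; edgeR adjusted p = 0.135). Npc2g (FBgn0039800) and Npc2h (FBgn0039801) are next to each other on chromosome arm 3R. Npc2g was the most abundant tissue-restricted member, at 6.45 CPM by the authors' deposited table. Its log2 fold change by the authors' deposited table was 0.59 ± 0.57 (interval -0.53 to 1.70; edgeR adjusted p = 0.970). Npc2h, another Npc2 protein reported to bind bacterial cell wall components, averaged 0.191 CPM by the authors' deposited table. It had 2.07 ± 0.78 on the log2 fold scale by the authors' deposited table (interval 0.53 to 3.60; edgeR adjusted p = 0.144). For Npc2h the positive side held 14.4 to 36.8 reads and the negative side 2.52 to 6.87 reads. Rounded at the lowest limits to 14 positive-side and 3 negative-side reads, its ratio of positive to negative side was 3.79 with an exact 95% counting interval of 1.06 to 20.6. Those reads were set so that Poisson noise gives the deposited statistic, so this interval is not separate evidence of a difference.

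**Figure D3:**
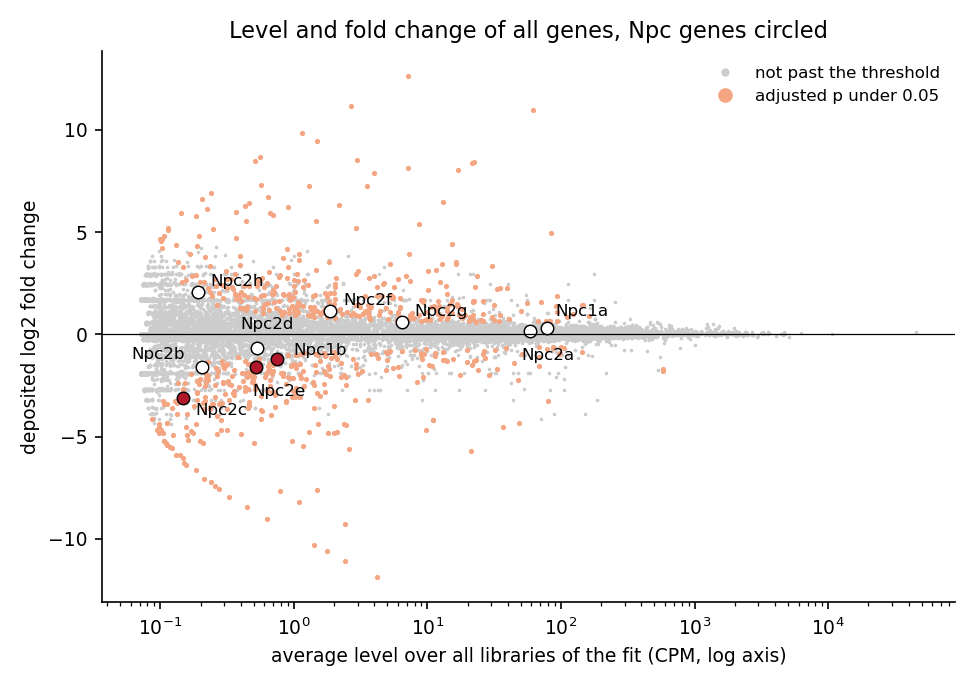
Average level over all libraries of the fit (CPM, log axis) against the deposited log2 fold change for all 14862 genes, with the 10 Npc genes circled and filled red where they passed. The 3 members that passed, Npc1b, Npc2c and Npc2e, have averages between 0.147 and 0.742 CPM, and Npc1a and Npc2a lie in the narrow band of abundant genes.

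The members that passed averaged under 1 CPM. Npc1b, Npc2b, Npc2c, Npc2d, Npc2e and Npc2h are the 6 members that averaged under 1 CPM, and 3 of the 6 passed the edgeR threshold, all on the negative side. Over all 6130 genes under 1 CPM, 3.05% passed on the negative side by the authors' deposited table. All 6 members had an unadjusted edgeR p under 0.05, against 11.9% of the genes under 1 CPM. Those genes were not matched to the members in level. Their median was 0.127 CPM with a median implied SE of 1.07, against 0.363 CPM and 0.46 for the 6 members. A share among genes of the members' own level was not computed. Of the 4 members at 1 CPM or more, Npc1a, Npc2a, Npc2f and Npc2g, 0 passed, and Npc2f alone had an unadjusted edgeR p under 0.05. The share of genes that passed was 11.6% at 1 to 16 CPM and 1.38% at 16 CPM or more by the authors' deposited table, so a count of 0 among these 4 does not set them apart.

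Per length the broadly expressed members led. With the prior count taken out and divided by the exon length of the Release 6 annotation, the average level was 89.5 CPM per kb for Npc2a and 15.1 CPM per kb for Npc1a. Npc2g followed with 9.68 CPM per kb and Npc2f with 2.54 CPM per kb. Npc2d and Npc2e stood close together at 0.693 and 0.683 CPM per kb. The last 4 were Npc1b at 0.169, Npc2h at 0.150, Npc2b at 0.147 and Npc2c at 0.110 CPM per kb. Without values per sample the spread of these levels is unknown, so the order of Npc2d and Npc2e, and that of the last 4, cannot be settled. The 6 libraries outside the comparison enter these averages too.

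Genes around the members passed at a share near that of all genes. Of 22 protein-coding neighbours with a value, taken as the nearest 2 on each side in the Release 6 order, 1 (4.55%) passed the edgeR threshold by the authors' deposited table, against 4.49% of all genes. It was CG1304, near Npc1b, which lay on the positive side with a log2 fold change of 4.68 by the authors' deposited table. Its average of 0.1001 CPM was close to the lowest of all genes, 0.0719 CPM, so this fold rests on few reads. The run of Npc2e, Npc2d and Npc2c had 3 such neighbours with a value, and 0 of them passed.

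Other genes of sterol handling and lipoproteins had a median log2 fold change of 0.09 by the authors' deposited table, against 0 over all genes. Of 32 such genes the authors' deposited table puts 3 (9.38%) past the edgeR threshold, all of them on the positive side, where 2.30% of all genes passed. Among those that did not pass, only fan (1.27 ± 0.54) and LRP1 (0.45 ± 0.20) had an unadjusted edgeR p under 0.05. Rfabg, the main lipoprotein of the blood, had 0.14 ± 0.28, and LpR2, a lipophorin receptor, had 0.07 ± 0.20 on the log2 fold scale by the authors' deposited table. Hr96, the nuclear receptor that governs the response to cholesterol and regulates Npc1b, had 0.04 ± 0.20 at 41.4 CPM by the authors' deposited table.

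The 3 sterol handling genes that passed were of different kinds. The first, mag, a secreted lipase of the gut and another known Hr96 target, had a log2 fold change of 3.08 ± 0.33 at 3.03 CPM by the authors' deposited table (edgeR adjusted p = 1.19e-18). It thus lay on the side opposite to Npc1b. CG1718, an ABC transporter of the A class, had 1.46 ± 0.30 at 31.4 CPM by the authors' deposited table (edgeR adjusted p = 8.62e-05). The third, nvd, the enzyme that makes the first change to cholesterol on the way to ecdysone, had 1.10 ± 0.28 by the authors' deposited table (edgeR adjusted p = 0.00358).

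Lysosomal genes, which share their compartment with Npc1a and Npc2a, had a median log2 fold change of 0.03 by the authors' deposited table. Of 28 such genes, 1 (3.57%) passed the edgeR test by the authors' deposited table, a share near the 4.49% of all genes, and it lay on the negative side. This was CG9466, an alpha-mannosidase, with a log2 fold change of -1.56 ± 0.27 by the authors' deposited table. Among those that did not pass, only Vps39 (-0.53 ± 0.26) had an unadjusted edgeR p under 0.05. The lysosomal protease gene cathD had 0.02 ± 0.21, and the lysosomal membrane protein gene Lamp1 had -0.10 ± 0.39, by the authors' deposited table. Of 16 genes that recognise bacterial cell wall or relay that signal, 0 passed the edgeR test by the authors' deposited table; at the 4.49% of all genes, so short a list need hold none. At an unadjusted p under 0.05 there was 1, PGRP-SA, a circulating recognition protein, with -1.80 ± 0.69 by the authors' deposited table; GNBP1 had 0.42 ± 0.22 and PGRP-SC2 had 0.57 ± 0.36.

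**Figure D4:**
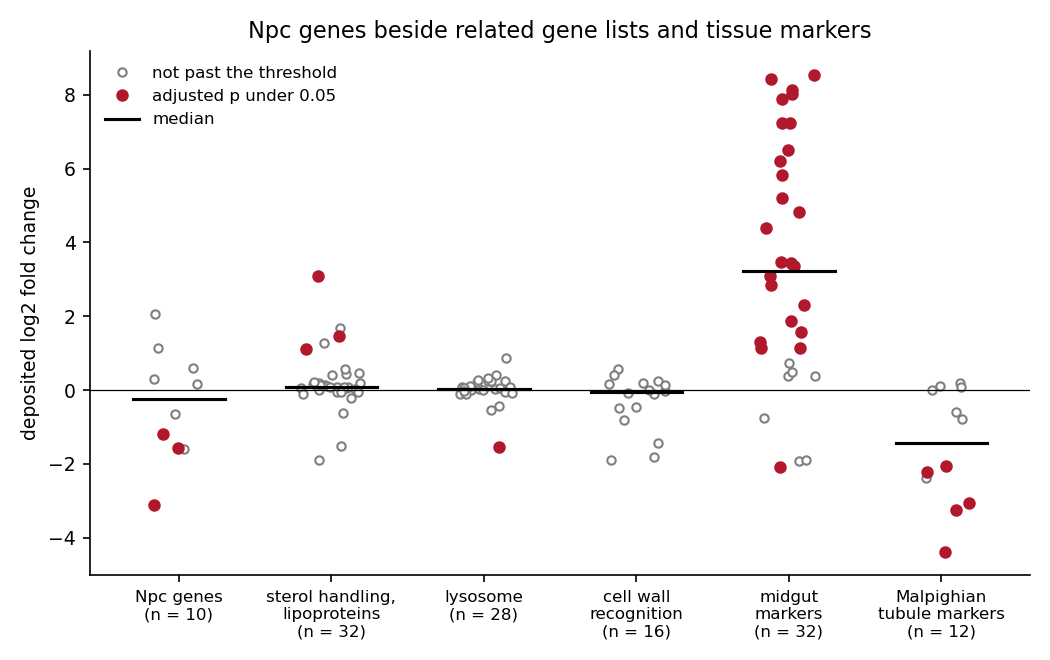
Deposited log2 fold change of the Npc genes beside the genes of 3 related lists and 2 sets of tissue markers, 1 point per gene, with the median as a bar and genes past the threshold filled. The 3 Npc genes that passed lie on the negative side, 24 of 32 midgut markers passed on the positive side, and 5 of 12 Malpighian tubule markers passed on the negative side.

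Markers of the midgut, where Npc1b acts, and of the Malpighian tubules, the fly's kidney, changed as well. Of 32 midgut markers the authors' deposited table puts 24 past the edgeR threshold on the positive side, and LysX as the 1 past it on the other. Their log2 fold changes by the authors' deposited table ran between -2.07 and 8.55, and their averages summed to 350 CPM. Npc1b, Npc2c and Npc2e thus lay on the side opposite to most digestive enzymes of this list. The other tissue-restricted members did not pass. Of these, Npc2f, Npc2g and Npc2h lay on the same side as most of the enzymes, and Npc2b and Npc2d on the opposite side. The list does not hold every gene of these enzyme families. Among those left out, for example, etaTry (-1.80) and lambdaTry (-0.94) passed on the negative side, and Jon99Cii (3.16) and LysC (6.26) on the positive side. The 4 midgut markers that are not secreted enzymes, the transcription factor genes GATAe and nub, the proton pump subunit gene Vha100-4 and the brush border gene mex1, did not pass. On the log2 fold scale the authors' deposited table gave GATAe 0.39, nub -0.77, Vha100-4 0.50 and mex1 0.37. Of 12 Malpighian tubule markers in the authors' deposited table, 5 passed, each on the negative side, with log2 fold changes between -4.38 and 0.19 and averages that summed to 499 CPM. Of the other marker lists, 1 of 15 muscle, 2 of 8 fat body, 1 of 8 haemocyte and 0 of 9 neuron genes passed, all of them on the positive side of the authors' deposited table. Over all genes the share on that side was 2.30%. At that share a list this short may hold 0 or 1, so the muscle, haemocyte and neuron counts do not set those lists apart. The part of any of these tissues in the result for the Npc genes was not tested.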

How the data were processed

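RNA of 6 samples in 2 groups of 3 was measured. Libraries came from an Illumina stranded total RNA kit with polyadenylated RNA selected, per the labels' protocols; FastQC, Bowtie and TopHat were used, per the submitters' processing notes. Counter, genome build and filters were not stated in the sources used here. The authors' deposited table of 14862 genes is an edgeR likelihood ratio test (glmLRT), per the file headers. Its log2 fold change is the authors' fitted difference, and its log2 CPM the authors' average over all libraries with a prior count. The deposited p-value is the chi-square tail of the authors' likelihood ratio score, recomputed within 6.38e-15, and the deposited adjusted p-value is Benjamini-Hochberg over all rows. There was no refit. A gene passed at an adjusted p under 0.05; 667 did.

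Effective library sizes were solved from the averages of genes with 1 read, with a prior count of 2; of 78 levels that follow for genes with 2 reads, 76 occur in the table within 1e-05. Reads per side were bounded from below by the number at which Poisson noise alone gives the deposited statistic, and from above by giving the compared libraries every read of the fit, with 1 level per side. Both steps were tested on simulated data. For the read limits, no gene was simulated with as few reads on a side as Npc2c, or as Npc2h at its lowest limit. Simulated base levels also ended below the averages of Npc1a and Npc2a. The test thus does not cover the limits of these genes. Names were matched to the Release 6 annotation for 99.7% of genes, and exon lengths are from Ensembl release 115; as the authors' build is unknown, no coordinates are given. Sequences were not analysed here. The members and lists were chosen with earlier results of these data known. The rule for named genes takes all members, InR, and of each related list those that passed, or else up to 3 with the smallest p. Rfabg, LpR2, Hr96, cathD, Lamp1, foxo, CG1304, CR44192 and the tissue markers named were chosen after their values were seen. So were fan, LRP1, Vps39, etaTry, lambdaTry, Jon99Cii and LysC. Alternatives were other thresholds, filters and adjustments. Python 3.11.15, numpy 2.4.6, pandas 2.3.3, scipy 1.17.1 and matplotlib 3.10.9 were used.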

Additional observations from a re-analysis of the deposited data

How the results depend on the processing

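Over 54 repeats of the 10 members' calls under 6 alternatives, 53 kept their side of the threshold. The exception was Npc1b under Benjamini-Yekutieli adjustment of the edgeR p-values (-1.20, adjusted p = 0.0679). Many of these outcomes were fixed beforehand. A stricter threshold, a minimum fold or a stricter adjustment cannot give a call to a member without one. All 3 members that passed exceed the minimum fold used. Members that a filter removed have no repeat under it. Npc2c and Npc2e passed under all 5 alternatives that kept them, with edgeR adjusted p-values of 0.00104 to 0.0126 for Npc2c and 7.40e-04 to 0.00897 for Npc2e over them. With only genes of 1 CPM or more, 4 members were left, and 0 passed on the negative side, against 3 without the filter. Those 3 averaged under 1 CPM, so the filter itself removed them. Over all genes, that filter left 344 calls and the stricter Benjamini-Yekutieli adjustment 442, against 667. No paired analysis was possible because the table holds no value per sample; for the same reason leaving out a replicate, a quasi-likelihood or DESeq2 test and other size factors were not run. Depth limits the result for Npc2b, Npc2c and Npc2h, each with under 14 reads on its lower side.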
